A study of Mus musculus with 12 samples.

Results

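The genes described here are 10 genes of the elastic fibre and its microfibrils, Eln, Fbn1, Mfap4, Mfap5, Fbln1, Fbln2, Fbln5, Efemp1, Ltbp2 and Emilin1, in the left ventricle of mice after aortic banding (AB) or sham surgery. They were taken by gene symbol from the deposited expression table through its NCBI Gene identifiers, and all 10 were found among its 18079 genes. The study asked how hispidulin, a natural flavonoid, acts on the heart under pressure overload. Its values are FPKM, a measure of transcript level in which reads are scaled by transcript length and by the size of the library. There were 4 groups of 3 male C57BL/6 mice (C57BL/6J in the study's methods), which by the labels were 8 weeks old at surgery and 12 weeks old at harvest, 4 weeks later, and 1 library was made per mouse. DMSO+Sham and DMSO+AB mice were injected with the solvent DMSO, and Hispidulin+Sham and Hispidulin+AB mice with hispidulin at 20 mg/kg/day. Injections were intraperitoneal and ran daily from the day ahead of surgery until harvest. AB was a narrowing of the descending aorta, so the banded animals model a pressure load and not a genetic disease. No allele was altered in any group.

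Elastic fibres give arteries, lung and heart wall their recoil. They have a core of cross-linked elastin, the product of Eln, laid down on a scaffold of microfibrils whose backbone is fibrillin-1, the product of Fbn1. Mfap4 and Mfap5 encode microfibril-associated proteins, Ltbp2 encodes a member of the latent TGF-beta binding protein family that binds fibrillin-1, and the fibulins (Fbln1, Fbln2, Fbln5 and Efemp1, which is fibulin-3) and Emilin1 encode glycoproteins found at the elastin and microfibril interface. In the heart these proteins are made mainly by fibroblasts, vascular smooth muscle cells and valve cells. Because whole tissue was sequenced, fewer cells of a type and less RNA per cell cannot be told apart in any value below.

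Sequence upstream of the genes was available in the RefSeq promoter table (build GRCm38.p6) for 7 of the 10, and not for Eln, Mfap4 and Mfap5. The build behind the expression table is not given in the sources used here. The windows below were chosen to show the regulatory sequence next to the gene with the largest ratio between DMSO+AB and DMSO+Sham (Ltbp2), the gene of the microfibril backbone (Fbn1) and the 1 gene whose mean level was lower in banded than in sham mice in both drug arms (Efemp1). Each runs 5' to 3' on the gene's strand and ends 50 bases after the annotated start. Ltbp2 lies on the minus strand at chr12:84876442-84876741, Fbn1 on the minus strand at chr2:125506389-125506688 and Efemp1 on the plus strand at chr11:28852955-28853254. Capitals mark matches on either strand to a GC box (GGGCGG) or to the AP-1 motif (TGANTCA).
Ltbp2: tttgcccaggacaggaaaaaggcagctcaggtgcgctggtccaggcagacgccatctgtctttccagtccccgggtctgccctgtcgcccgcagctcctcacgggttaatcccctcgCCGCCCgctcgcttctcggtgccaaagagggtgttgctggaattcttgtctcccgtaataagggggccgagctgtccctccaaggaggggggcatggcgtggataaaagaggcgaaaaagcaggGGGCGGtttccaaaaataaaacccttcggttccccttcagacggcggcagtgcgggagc
Fbn1: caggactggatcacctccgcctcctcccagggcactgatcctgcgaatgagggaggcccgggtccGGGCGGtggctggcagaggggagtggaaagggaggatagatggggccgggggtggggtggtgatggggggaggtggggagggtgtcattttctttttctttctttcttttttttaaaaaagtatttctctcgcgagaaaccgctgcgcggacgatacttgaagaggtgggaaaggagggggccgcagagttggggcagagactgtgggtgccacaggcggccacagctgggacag
Efemp1: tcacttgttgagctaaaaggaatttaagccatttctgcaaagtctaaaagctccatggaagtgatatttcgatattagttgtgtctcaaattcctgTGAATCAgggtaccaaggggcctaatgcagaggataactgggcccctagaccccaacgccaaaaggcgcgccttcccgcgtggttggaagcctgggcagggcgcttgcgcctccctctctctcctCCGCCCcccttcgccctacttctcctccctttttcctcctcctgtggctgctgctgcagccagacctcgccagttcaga
Ltbp2 held GC boxes at -133 and -9 from the start, Fbn1 held 1 at -185, and Efemp1 held 1 at -29 beside an AP-1 match at -154. A GC box was found in 6 of the 9 windows of the 7 genes (Fbln1 and Fbln5 have 2 annotated starts each, and the windows of Fbln1 overlap), against 35.7% of the 32851 windows of all genes. No window of the 7 genes held the letters of a TATA box (TATAAA, 13.6% of all windows) or of an MCAT element (CATTCC, 14.7%). The Efemp1 window was the 1 with an AP-1 match, a motif in 7.81% of all windows. A SMAD box (CAGACA) was found in both windows of Fbln1, in 1 of Fbln5 and in that of Emilin1, and in 6913 of the 32851 windows of all genes.

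Some features of the libraries bear on the values. The cardiomyocyte markers Myh6, Myl2, Myl3, Tnnt2, Tnni3 and Actc1 summed to between 36023.9 and 53162.5 FPKM, so transcripts of cardiomyocytes were abundant in every library. Transcripts of atrial muscle were uneven: Myl7, the atrial myosin light chain, was at 333.05 FPKM in Hispidulin+Sham mouse 3, 67.54 in DMSO+AB mouse 2 and 42.26 in Hispidulin+AB mouse 3. No other mouse exceeded 15.03 FPKM. The fibroblast markers Pdgfra, Tcf21, Ddr2, Dpt and Pdgfrl ran in sum from 38.22 to 68.7 FPKM in DMSO+Sham and from 59.42 to 85.86 in DMSO+AB mice, and with hispidulin from 62.07 to 76.12 after sham surgery and from 62.34 to 67.43 after banding. The numbers that the labels give to animals fall into a series of 5 mice and a series of 6, with 1 mouse apart, and both series hold banded and sham mice. FPKM carry no depth, so no counting error can be given.

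In DMSO+Sham ventricles Fbln1 was the most abundant of the 10 transcripts and Ltbp2 the least abundant. Fbln1 was at 39.2 ± 4.88 FPKM (SD, n = 3), above every DMSO+Sham value of the other genes. Fbln2 (21.2 ± 4.68) and Mfap5 (19.3 ± 4.07) followed, with ranges that overlapped each other and no other gene. Fbln5 (11.7 ± 1.82), Eln (11.6 ± 2.18), Emilin1 (8.87 ± 1.91), Mfap4 (6.88 ± 2.52), Fbn1 (5.23 ± 1.70) and Efemp1 (3.33 ± 1.23) formed a descending series in which each overlapped the next. Ltbp2 lay apart at 0.467 ± 0.298 FPKM. In DMSO+AB mice the order was different, with Mfap5 first at 124 ± 70.5 FPKM, then Mfap4 at 69.2 ± 46.6, Fbln2 at 48.7 ± 14.6 and Fbln1 at 40.3 ± 9.56. The ranges of these 4 genes overlapped in DMSO+AB except those of Mfap5 and Fbln1. FPKM are per transcript length, so these levels are comparable between genes within a group.

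**Figure D1:**
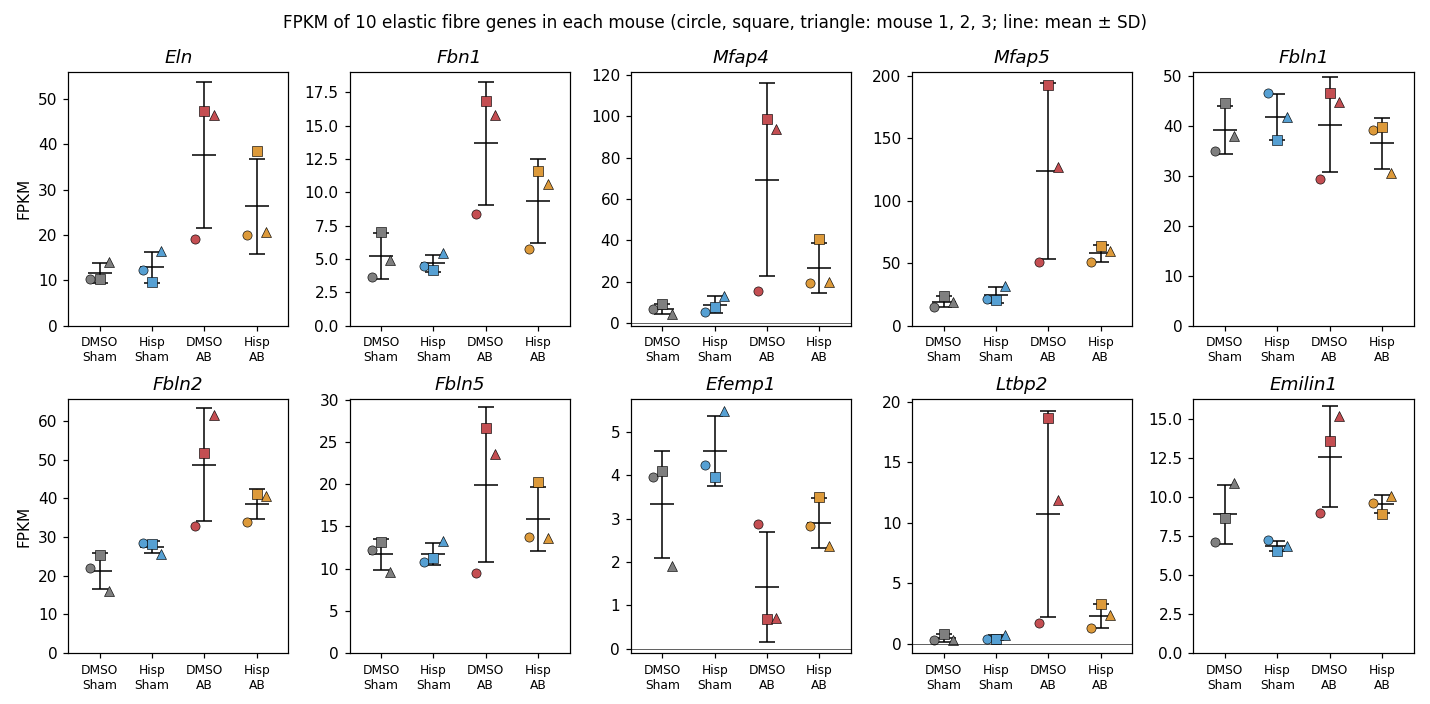
FPKM of the 10 genes (y axis, linear, a scale per gene) in each of the 12 mice by group (x axis), with circle, square and triangle for mouse 1, 2 and 3 and lines for mean ± SD. Eln, Mfap4, Mfap5, Fbln2 and Ltbp2 lie higher in all 6 banded mice than in all 6 sham mice, Fbln1 stays near 40 FPKM, and DMSO+AB mouse 1 (red circle) lies well below mice 2 and 3 for most genes.

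The first comparison asked which of these genes pressure overload altered in solvent-treated hearts. Between DMSO+AB and DMSO+Sham, 6 of the 10 genes rose (Eln, Fbn1, Mfap4, Mfap5, Fbln2 and Ltbp2), 0 fell and 4 did not pass (limma on log2(FPKM + 1), Benjamini-Hochberg adjusted p under 0.05 over 11664 genes). Of all genes tested, 5.21% passed. The 10 genes were chosen with earlier results of these data known, so that share is no unbiased standard for them. Ltbp2 met the filter on low values only through its banded mice, and of the other 9 genes 5 rose. The groups did not overlap for these same 6 genes, which held for 17.9% of all genes. The median difference of the 10 genes was 1.18 on the log2 scale, against -0.04 for all genes tested. An exact permutation test of 3 mice against 3 cannot go below 0.1, and all 6 reached that limit.

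Elastin itself rose. Eln (NCBI Gene 13717) was at 10.26, 10.39 and 14.1 FPKM in the DMSO+Sham mice and at 19.16, 47.32 and 46.52 in the DMSO+AB mice. Mouse 1 of the banded group was thus just above the sham range and mice 2 and 3 were far above it. The log2 difference was 1.53 ± 0.34 (SE), with an adjusted p of 0.0268. In the hispidulin arm Eln was at 12.35, 9.73 and 16.43 FPKM in sham and at 19.9, 38.44 and 20.7 in banded mice, again without overlap.

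The microfibril genes among the 10 are Fbn1, Mfap4, Mfap5 and Ltbp2. Of the wider list described below, Mfap2 (0.47, adjusted p = 0.457, limma) and Mfap3 (-0.05, adjusted p = 0.847, limma) did not pass in DMSO hearts. They were named here after their values were seen. Adamtsl2 (2.27, adjusted p = 0.0109, limma) and Ltbp4 (1.10, adjusted p = 0.0413, limma) were among those of the same list that did pass. Fbn1 (NCBI Gene 14118), the fibrillin-1 backbone, was at 3.67, 7.04 and 4.97 FPKM in DMSO+Sham and at 8.39, 16.85 and 15.83 in DMSO+AB mice, a log2 difference of 1.22 ± 0.29 (SE, adjusted p = 0.0350). In Hispidulin+Sham mice it was at 4.46, 4.17 and 5.43 FPKM and in Hispidulin+AB mice at 5.73, 11.63 and 10.64. Its lowest banded value, in Hispidulin+AB mouse 1, lay within the DMSO+Sham range. Mfap4 (NCBI Gene 76293), a microfibril glycoprotein with a fibrinogen-like domain, had the largest log2 difference of the 10. It was at 6.69, 9.49 and 4.46 FPKM in DMSO+Sham and at 15.5, 98.44 and 93.67 in DMSO+AB mice, a difference of 2.82 ± 0.59 (SE, adjusted p = 0.0228). Its Hispidulin+Sham values were 5.39, 7.88 and 13.35 FPKM and its Hispidulin+AB values 19.38, 40.76 and 20.02.

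Mfap5 (NCBI Gene 50530), which encodes the microfibril glycoprotein MAGP-2, had the smallest adjusted p. It was at 15.38, 23.52 and 19.14 FPKM in DMSO+Sham and at 51.27, 192.13 and 127.2 in DMSO+AB mice. Even the lowest banded value was over the highest sham value of either arm, and the difference was 2.44 ± 0.37 (SE, adjusted p = 0.00674). Hispidulin+Sham mice had 21.73, 20.54 and 31.78 FPKM and Hispidulin+AB mice 50.72, 63.68 and 59.61, so the 3 treated banded hearts lay close together. Ltbp2 (NCBI Gene 16997) was below 1 FPKM in all 6 sham hearts, at 0.32, 0.81 and 0.27 in DMSO+Sham and 0.4, 0.41 and 0.74 in Hispidulin+Sham mice. Banded DMSO hearts had 1.66, 18.67 and 11.86 FPKM and banded hispidulin hearts 1.28, 3.27 and 2.35. The ratio of the DMSO+AB to the DMSO+Sham mean was 22.99, the largest of the 10, against 10.1 for Mfap4 and 6.39 for Mfap5. With 1 mouse left out it ran from 14.5 (without DMSO+AB mouse 2) to 36.4 (without DMSO+Sham mouse 2). Its log2 difference of 2.60 ± 0.55 (SE, adjusted p = 0.0232) understates the ratio because 1 is added to low values, and with 0.1 added it was 3.82. Ltbp2 entered the test only through the banded mice, since no sham mouse reached 1 FPKM, so it had to differ. With no filter on low values its adjusted p was 0.0512 in DMSO hearts. In that fit Eln (adjusted p = 0.0557, limma) and Fbn1 (adjusted p = 0.070, limma) did not pass either, beside 383 of all genes that did.

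The fibulins did not move as 1 group. Fbln2 (NCBI Gene 14115), the fibulin of endocardial cushions and vessel walls, rose from 22.07, 25.41 and 16.16 FPKM in DMSO+Sham to 32.78, 51.85 and 61.52 in DMSO+AB mice (log2 difference 1.14 ± 0.21, SE, adjusted p = 0.0139). Its values were 28.48, 28.25 and 25.69 FPKM in Hispidulin+Sham and 33.94, 41.09 and 40.65 in Hispidulin+AB mice. Fbln1 (NCBI Gene 14114) had the smallest difference of the 10. It was at 35.06, 44.59 and 38.04 FPKM in DMSO+Sham and at 29.33, 46.7 and 44.93 in DMSO+AB mice, a log2 difference of 0.02 with a 95% interval from -0.37 to 0.40. In the hispidulin arm Fbln1 was at 46.57, 37.32 and 41.92 FPKM in sham and at 39.18, 39.86 and 30.64 in banded mice. The groups overlapped in every comparison.

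Fbln5 (NCBI Gene 23876), which guides elastin assembly and binds integrins, was at 12.26, 13.17 and 9.66 FPKM in DMSO+Sham and at 9.52, 26.72 and 23.59 in DMSO+AB mice. Banded mouse 1 lay below all sham mice and mice 2 and 3 above them, and the gene did not pass (0.61 ± 0.30, SE, adjusted p = 0.273). It was at 10.76, 11.27 and 13.23 FPKM in Hispidulin+Sham and at 13.74, 20.21 and 13.67 in Hispidulin+AB mice. Efemp1 (NCBI Gene 216616), fibulin-3, was the 1 gene with a lower mean in DMSO+AB than in DMSO+Sham mice. It was at 3.97, 4.1 and 1.91 FPKM in DMSO+Sham and at 2.88, 0.69 and 0.71 in DMSO+AB mice, so mice 2 and 3 lay below and mouse 1 within the sham range. The log2 difference was -0.91 ± 0.31 (SE) and did not pass (adjusted p = 0.117). Hispidulin+Sham mice had 4.24, 3.95 and 5.49 FPKM of Efemp1 and Hispidulin+AB mice 2.84, 3.5 and 2.36. Emilin1 (NCBI Gene 100952), an inhibitor of TGF-beta precursor processing, was at 7.1, 8.62 and 10.89 FPKM in DMSO+Sham and at 8.96, 13.6 and 15.15 in DMSO+AB mice, and did not pass (0.45 ± 0.18, SE, adjusted p = 0.176). Its Hispidulin+Sham values, 7.21, 6.55 and 6.84 FPKM, all lay below its Hispidulin+AB values of 9.62, 8.89 and 10.05.

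The call in DMSO hearts rested on few mice. Without DMSO+Sham mouse 1, DMSO+AB mouse 2 or DMSO+AB mouse 3 in turn, 1 of the 10 genes passed (Mfap5 each time), and without DMSO+AB mouse 1, 9 passed. The counts over all genes moved too, from 608 to 91, 97, 191 and 954 in these fits. With the 3 mice of high Myl7 left out, and when the model held the 6 DMSO mice alone, 0 of the 10 passed, beside 20 and 11 of all genes. The log2 differences of the 6 genes ran from 1.05 (Fbn1) to 2.38 (Mfap4) in the first of these fits. In the second they were unchanged, and the spread was estimated from the DMSO mice alone and not pooled over all groups. With the series of animal numbers as a covariate 2 passed (Mfap5 and Fbln2), beside 142 of all genes. The log2 differences of the other 4 were then 1.42 for Eln (adjusted p = 0.103), 1.06 for Fbn1 (adjusted p = 0.114), 2.85 for Mfap4 (adjusted p = 0.0791) and 2.58 for Ltbp2 (adjusted p = 0.0817), by limma.

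**Figure D2:**
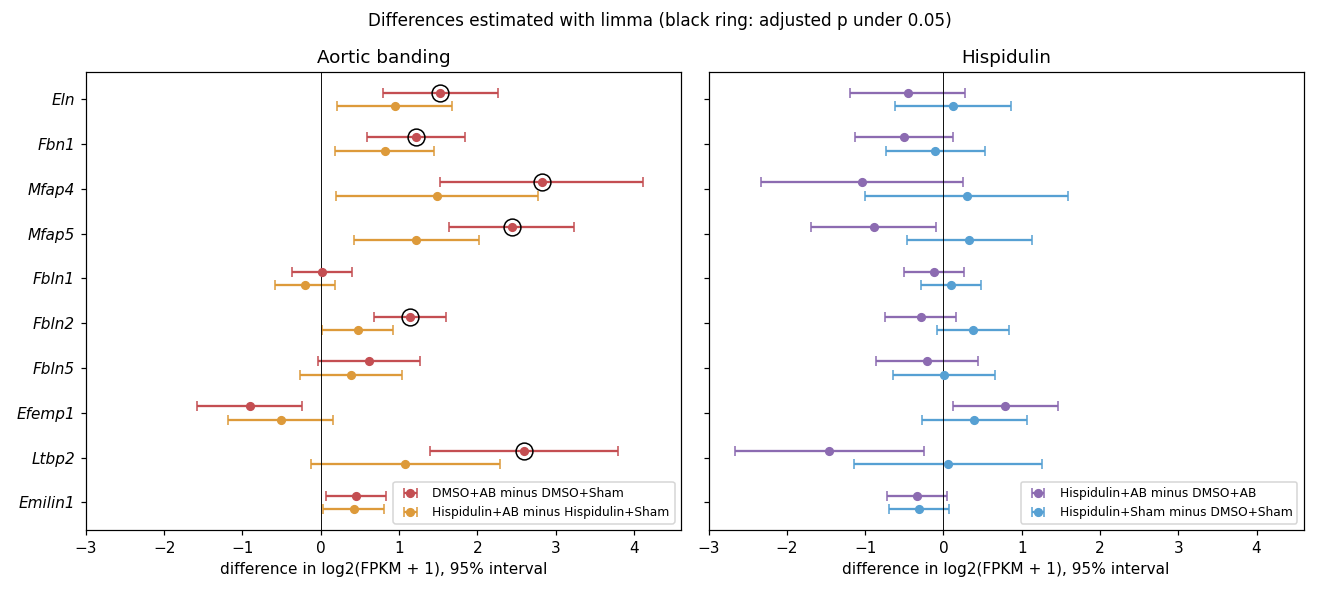
Differences in log2(FPKM + 1) (x axis) for the 10 genes (y axis) with 95% intervals from limma, for AB in each drug arm (left) and for hispidulin in banded and in sham mice (right); a black ring marks an adjusted p under 0.05. The 6 rings all belong to DMSO+AB against DMSO+Sham, and 9 of 10 points for hispidulin in banded mice lie left of 0.

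Averaged over both drug arms, 6 banded against 6 sham mice, the same 6 genes rose and 0 fell, where 7.39% of all genes passed. The log2 differences were 1.24 for Eln (adjusted p = 0.0118), 1.02 for Fbn1 (adjusted p = 0.0138), 2.15 for Mfap4 (adjusted p = 0.0121), 1.83 for Mfap5 (adjusted p = 0.00328), 0.80 for Fbln2 (adjusted p = 0.00976) and 1.84 for Ltbp2 (adjusted p = 0.0168), all by limma. This average shares its DMSO mice with the comparison above and is no independent repeat of it. The 6 banded hearts were all above the 6 sham hearts for Eln, Mfap4, Mfap5, Fbln2 and Ltbp2, that is for 5 of 10 genes against 4.96% of all genes. Ltbp2 had to differ here too, since it met the filter through banded mice, and without it 5 of 9 genes rose and 4 of 9 did not overlap. An exact permutation test within the arms gave p = 0.005, the smallest it allows, for each of the 6 genes that rose. Emilin1 (0.43, adjusted p = 0.0570) and Efemp1 (-0.71, adjusted p = 0.0698) came close to the threshold, and Fbln5 (0.50, adjusted p = 0.178) and Fbln1 (-0.09, adjusted p = 0.721) did not. Each of the 6 genes passed in at least 18 of the 19 alternatives tried. With a block for the replicate number Emilin1 passed as well (adjusted p = 0.0443).

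Within both series of animal numbers the 6 genes that rose were higher in all banded than in all sham mice. Ltbp2, among the 6, met the filter on low values only through banded mice, so its separation carries no weight here either. Of all genes, 9.28% had groups that did not overlap in the same direction in both series. Fbln5 and Emilin1 did not overlap in the series of 5 mice alone, as did Efemp1 with banded mice lower, and Fbln1 overlapped in both. In the series of 2 banded and 3 sham mice the log2 difference was 1.45 for Eln, 1.198 for Fbn1, 2.41 for Mfap4, 1.94 for Mfap5, 0.85 for Fbln2 and 2.10 for Ltbp2. In the series of 4 banded and 2 sham mice it was 0.88, 0.82, 1.96, 1.57, 0.91 and 1.68 for the same genes. Left without the 3 mice of high Myl7, Mfap5 passed (1.71, adjusted p = 0.0353) and the other 5 did not, with log2 differences of 1.29 for Eln, 0.92 for Fbn1, 2.17 for Mfap4, 0.73 for Fbln2 and 1.58 for Ltbp2, while the count over all genes went from 862 to 74. Of the high-Myl7 mice, DMSO+AB mouse 2 had the highest value of all 12 mice for 7 of the 10 genes. DMSO+AB mouse 3 had Myl7 at 0.24 FPKM. It was well below mouse 2 for Mfap5 (127.2 against 192.13 FPKM) and Ltbp2 (11.86 against 18.67). The 2 mice were close for Eln (46.52 against 47.32) and Mfap4 (93.67 against 98.44). Mouse 3 was above mouse 2 for Fbln2 (61.52 against 51.85) and Emilin1 (15.15 against 13.6). What part atrial tissue has in these values was not tested. The 5 fibroblast markers did not pass in either comparison, with a median log2 difference of 0.33 in DMSO hearts and 0.16 over both arms. In DMSO hearts 3 of them had an unadjusted p under 0.05. Pdgfrl, with the largest difference of these, was at 0.92, 2.93 and 0.95 FPKM in DMSO+Sham and at 2.54, 10.51 and 6.62 in DMSO+AB mice (1.47, adjusted p = 0.0533, limma). Pdgfrl and Tcf21 were lowest in banded mouse 1, like most of the 10 genes. Pdgfra was lowest in mouse 2 (7.22, 6.84 and 7.93 FPKM), and Dpt (41.66, 55.79 and 34.4) and Ddr2 (4.68, 3.74 and 2.12) in mouse 3. Of the 5 smooth muscle markers, Tagln alone passed, over both arms (0.49), and 0 of the 4 endothelial markers passed. What part such cells have in the rise was not tested.

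In the hispidulin arm taken alone, 0 of the 10 genes and 0 of all 11664 (0%) passed between Hispidulin+AB and Hispidulin+Sham, with 847 genes at an unadjusted p under 0.05. A block for the replicate number raised this to 17 genes, none of them among the 10. The direction of the mean difference was that of DMSO hearts for all but Fbln1: 8 genes were higher in all 3 banded than in all 3 sham mice, Efemp1 was lower in all 3, and Fbln1 alone overlapped. Ltbp2, among the 8, met the filter on low values only through banded mice, so its separation carries no weight here. Of all genes 20.9% had groups that did not overlap in this arm. The largest log2 differences were those of Mfap4 (1.49, 95% interval 0.19 to 2.78), Mfap5 (1.22, 0.42 to 2.02) and Ltbp2 (1.08, -0.12 to 2.28), with adjusted p of 0.637, 0.482 and 0.729. The median over the 10 genes was 0.64, against -0.02 for all genes. When the model held the 6 hispidulin mice alone, Mfap5 passed (adjusted p = 0.0218).

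The banded hearts were uneven. DMSO+AB mouse 1 was the lowest of its group for 9 of the 10 genes and the highest for Efemp1. The summed FPKM of the 10 genes was 179.45 in DMSO+AB mouse 1, 512.97 in mouse 2 and 440.98 in mouse 3. In Hispidulin+AB mice it was 196.33, 271.33 and 210.69, and in the 6 sham mice between 116.78 and 160.9. DMSO+AB mouse 1 was therefore below all 3 Hispidulin+AB mice, and mice 2 and 3 of its group were above them.

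**Figure D3:**
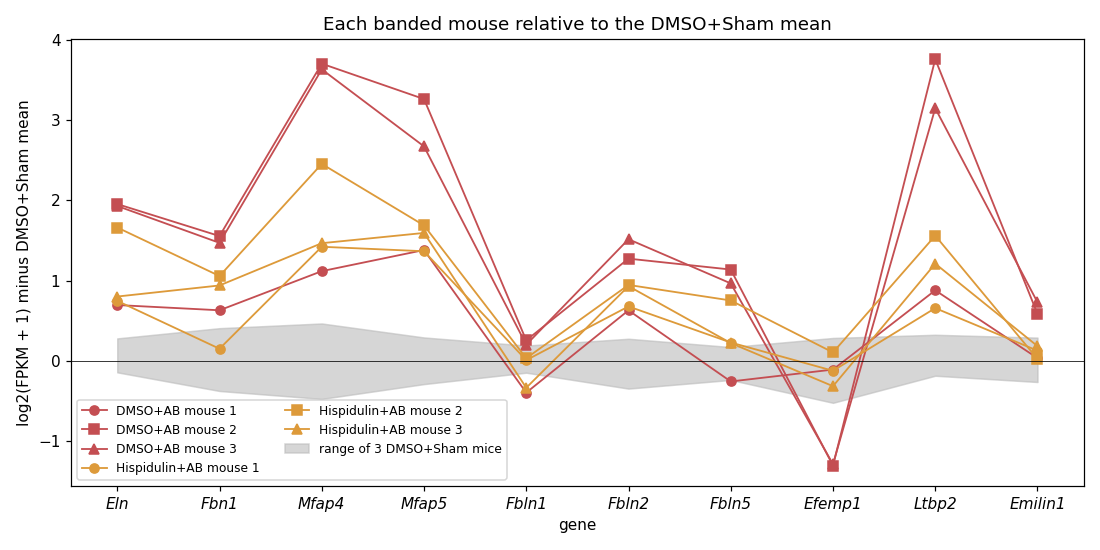
Log2(FPKM + 1) of each of the 6 banded mice minus the DMSO+Sham mean (y axis) for the 10 genes (x axis), with the grey band for the range of the 3 DMSO+Sham mice; lines join the values of a mouse. DMSO+AB mice 2 and 3 run together at the top, reaching 3.76 for Ltbp2 in mouse 2, and at the bottom for Efemp1 (-1.31 and -1.29), while DMSO+AB mouse 1 runs among or below the Hispidulin+AB mice.

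The question of the study was whether hispidulin alters the response to banding. Between Hispidulin+AB and DMSO+AB, 0 of the 10 genes and 0% of all genes passed (362 had an unadjusted p under 0.05), and the smallest adjusted p over all genes was 0.996. The means of 9 of the 10 genes were lower with hispidulin and that of Efemp1 was higher, with a median log2 difference of -0.40 against 0.0047 for all genes. The groups overlapped for all 10 genes, whereas they did not for 7.88% of all genes. Ltbp2 had the largest difference (-1.46, 95% interval -2.66 to -0.25, unadjusted p = 0.0217), ahead of Mfap4 (-1.04, -2.33 to 0.25) and Mfap5 (-0.89, -1.69 to -0.09, unadjusted p = 0.0317), by limma. Efemp1 differed by 0.79 (0.12 to 1.46, unadjusted p = 0.0243, limma). Each had an adjusted p of 0.996, so a difference with the drug was not shown for any of them. Apart from Ltbp2, Mfap5 and Efemp1, the 95% intervals of the genes include 0. Markers of other cells also differed in mean here. Of the mesothelial markers, Msln was at 0.15, 0.11 and 0 FPKM in DMSO+AB and at 2.9, 1.14 and 0.07 in Hispidulin+AB mice, and Upk3b at 0.08, 0.04 and 0.03 against 2.47, 1.05 and 0. Both met the filter on low values only through hispidulin mice, so no test of them is given. The 4 mesothelial markers, Wt1, Msln, Upk3b and Krt19, summed to between 1.71 and 2.51 FPKM in DMSO+AB and between 2.21 and 9.6 in Hispidulin+AB mice. All 5 smooth muscle markers had higher means (median log2 difference 0.34). The fibroblast markers had a median difference of 0.04, from -0.81 to 0.15, with 3 higher and 2 lower. Of the lower, Pdgfrl was at 2.54, 10.51 and 6.62 FPKM in DMSO+AB and at 1.79, 3.68 and 3.38 in Hispidulin+AB mice. None of the smooth muscle and fibroblast markers passed, and the part of such cells in the values of the 10 genes was not tested. The size of these differences rested on single DMSO+AB mice. Without mouse 1, Ltbp2 (-2.32, adjusted p = 0.0119) and Mfap5 (-1.42, adjusted p = 0.0483) passed, and the other 8 genes did not, where 20 of all genes tested passed. Without mouse 2, the differences were -0.87 for Ltbp2, -0.48 for Mfap5 and -0.60 for Mfap4, and 0 of all genes passed.

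In sham hearts hispidulin moved none of the 10 genes past the threshold. Between Hispidulin+Sham and DMSO+Sham, 0 of the 10 and 0% of all genes passed (287 had an unadjusted p under 0.05). The log2 differences lay between -0.31 for Emilin1 and 0.40 for Efemp1, with a median of 0.11 against -0.01 for all genes. Fbln2 was higher in all 3 Hispidulin+Sham mice than in all 3 DMSO+Sham mice (0.38, 95% interval -0.08 to 0.83), the 1 gene of the 10 without overlap, against 5.6% of all genes.

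The difference between the arms in the effect of banding was tested as an interaction. It was negative for 9 of the 10 genes. For 8 of them the banding difference was positive in both arms and smaller with hispidulin, and for Fbln1 it was 0.02 in DMSO and -0.20 in hispidulin hearts. It was positive for Efemp1, whose banding difference was negative in both arms. None of the 10 and 0% of all genes passed (289 had an unadjusted p under 0.05, smallest adjusted p = 0.9995). The estimates were -1.52 for Ltbp2 (95% interval -3.21 to 0.18), -1.33 for Mfap4 (-3.17 to 0.50), -1.22 for Mfap5 (-2.35 to -0.09) and -0.67 for Fbln2 (-1.31 to -0.02). For 2 of the 10 genes, Mfap5 and Fbln2, all hispidulin mice lay below the DMSO mean after banding and above it after sham surgery, and 9.77% of all genes had their hispidulin mice on opposite sides in this way. The effects of AB in DMSO hearts and of hispidulin in banded hearts use the same DMSO+AB mice, so their opposite signs are not separate results.

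The make-up of the elastic fibre transcript pool differed between banded and sham hearts. As a share of the summed FPKM of the 10 genes, Mfap5 took 15.1 ± 1.63% (SD, n = 3) in DMSO+Sham and 31.6 ± 5.05% in DMSO+AB mice, and 16.96 ± 2.42% and 25.9 ± 2.41% in sham and banded mice given hispidulin. Fbln1 took 30.7 ± 0.96% in DMSO+Sham and 11.9 ± 3.91% in DMSO+AB mice, and 29.2 ± 3.45% and 16.4 ± 3.08% with hispidulin. For both genes the 6 banded mice did not overlap the 6 sham mice. Mfap4 took 5.30 ± 1.41% in DMSO+Sham and 16.4 ± 6.76% in DMSO+AB mice, and Ltbp2 0.350 ± 0.175% and 2.42 ± 1.38%. Eln took 9.21 ± 2.39% in DMSO+Sham and 10.2 ± 0.804% in DMSO+AB mice, and 8.80 ± 1.37% and 11.4 ± 2.42% with hispidulin, with overlap in both arms. The share of Fbln1 thus dropped while its level differed little, since shares sum to a fixed total. DMSO+AB mouse 1, whose summed level was the lowest of the banded mice, had Mfap5 at 28.6% and Fbln1 at 16.3%, both within the range of the other banded mice. Its share of Mfap4 (8.64%) lay close to sham values, and those of Efemp1 (1.60%) and Emilin1 (4.99%) within them.

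**Figure D4:**
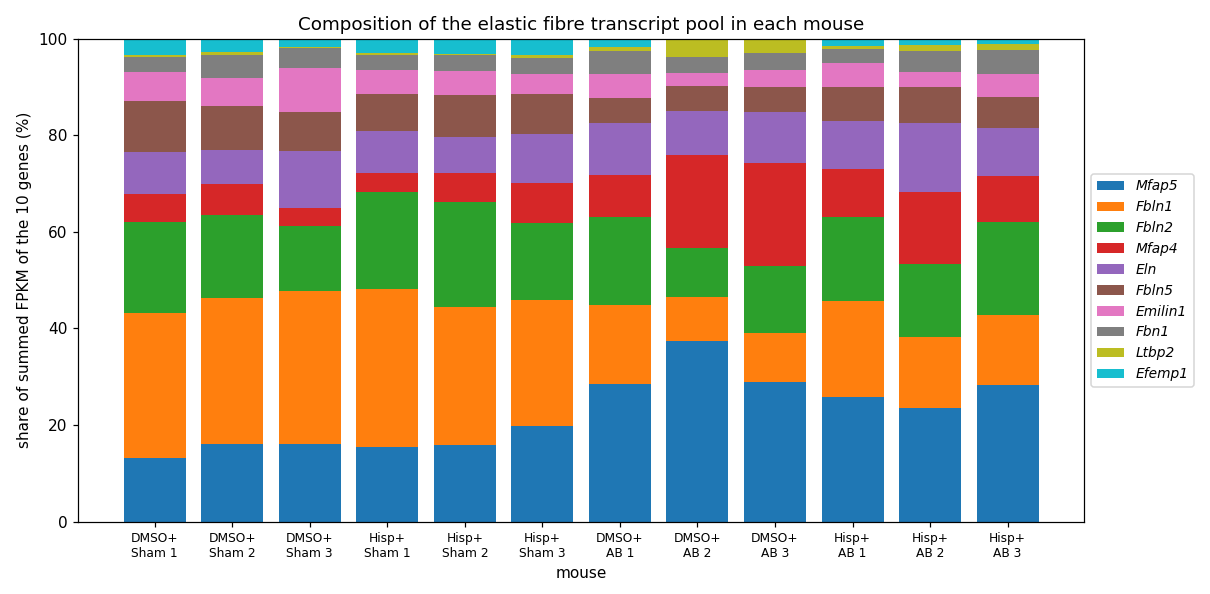
Share of each of the 10 genes in their summed FPKM (y axis, percent) for each of the 12 mice (x axis), stacked from Mfap5 at the bottom to Efemp1 at the top. Mfap5 (blue) is at 13.2 to 19.8% in the 6 sham mice and at 23.5 to 37.5% in the 6 banded mice, and Fbln1 (orange) at 26.1 to 32.9% and at 9.10 to 20.0%.

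Of the 10 genes, all but Efemp1 varied together among mice of the same group. After the group means were taken from log2(FPKM + 1), the 36 pairs without Efemp1 had a median Pearson correlation of 0.76 over the 12 mice, from 0.38 to 0.98. The 9 pairs with Efemp1 were all negative, from -0.34 to -0.90, the last with Emilin1. These are descriptions over 12 libraries that share their depth, composition and the wide spread of the DMSO+AB group. The 5 other genes whose profile over the 12 mice was most like the mean of the standardized values of the 10 were Adamts2 (Pearson correlation 0.982), Bgn (0.981), Cilp (0.979), Npdc1 (0.979) and Col16a1 (0.978). Bgn averaged 94.5 FPKM in DMSO+Sham and 375 in DMSO+AB mice, and 112 and 203 in sham and banded mice given hispidulin. Cilp averaged 2.53 and 55.7 FPKM without and 2.64 and 12.3 with hispidulin.

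Of 23 other genes of elastic fibres, microfibrils and their assembly, 16 could be tested. In DMSO hearts 5 rose with banding and 0 fell, where 5.21% of all genes passed. This list was chosen with earlier results of these data known, so that share is no unbiased standard for it. Adamtsl2, a fibrillin-binding protein, rose by 2.27 on the log2 scale (adjusted p = 0.0109, limma), from 2.74, 5.66 and 2.92 FPKM to 10.31, 26.87 and 33.56. Loxl2 and Loxl1, lysyl oxidases that cross-link collagen and elastin, rose by 1.55 (adjusted p = 0.0111, limma) and 1.37 (adjusted p = 0.0181, limma). Loxl1 was at 8.25, 15.43 and 12.7 FPKM in DMSO+Sham and at 20.28, 40.89 and 39.49 in DMSO+AB mice. Ltbp4, which binds latent TGF-beta and fibulin-5, rose by 1.10 (adjusted p = 0.0413, limma), and Efemp2, fibulin-4, by 0.69 (adjusted p = 0.0316, limma). Averaged over both arms, where 7.39% of all genes passed, 4 of the 16 rose, Adamtsl2 (1.88), Loxl2 (1.24), Loxl1 (1.11) and Efemp2 (0.45), and Ltbp4 did not pass (0.68, adjusted p = 0.0561). The call of Efemp2 was lost in 13 of the 19 alternatives, with adjusted p from 0.0509 to 0.274 in those, while its log2 difference lay between 0.40 and 0.54 in all 19. The calls of Loxl2 and Loxl1 were lost in 1, the mice of high Myl7 left out, with differences of 1.17 and 1.00 there, and Adamtsl2 passed in all 19. None passed in the hispidulin arm alone. The median of the 16 was 0.53 in DMSO hearts and 0.35 over both arms. Without DMSO+Sham mouse 1 or DMSO+AB mouse 2, 0 of the 16 passed in DMSO hearts, without DMSO+AB mouse 3, 2 passed, and without DMSO+AB mouse 1, 9 passed, in fits where 91, 97, 191 and 954 of all genes passed. With the mice of high Myl7 left out, 0 passed there and 1 over both arms (Adamtsl2), beside 20 and 74 of all genes. Fbn2, Fbln7, Hmcn1, Emilin3, Loxl4, Thsd4 and Adamts17 did not reach 1 FPKM in 3 mice and were not tested. The second fibrillin gene, Fbn2, was at 0.01 to 0.17 FPKM in all 12 mice.

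**Figure D5:**
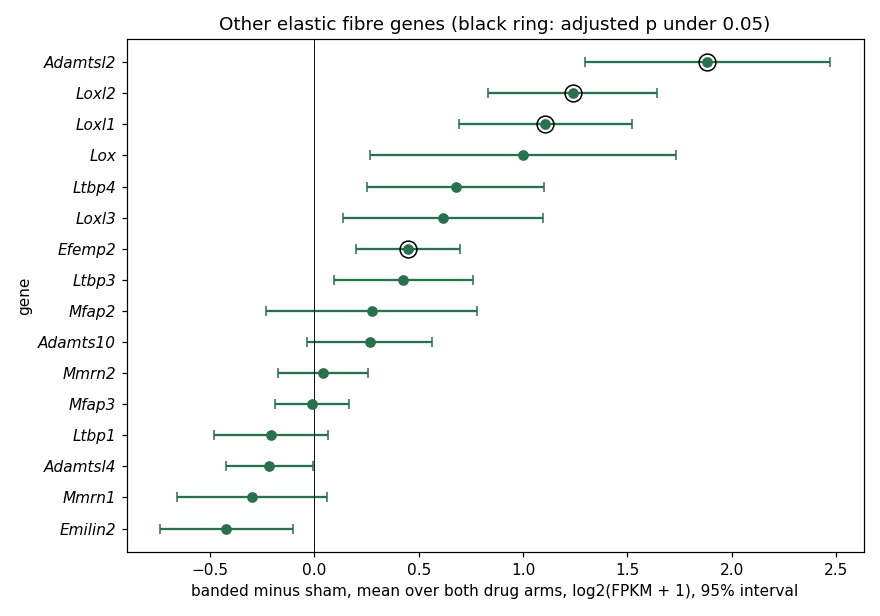
Difference between banded and sham mice, averaged over both drug arms, in log2(FPKM + 1) with 95% intervals (x axis) for the 16 other elastic fibre genes tested (y axis, ordered by difference); a black ring marks an adjusted p under 0.05. The 4 ringed genes are Adamtsl2, Loxl2, Loxl1 and Efemp2, and Emilin2 is lowest at -0.42.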

How the data were processed

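Left ventricular poly(A) RNA of 12 mice was sequenced as single-end 50-base reads on a BGISEQ-500. The authors deposited FPKM for 18079 genes, rounded to 0.01, with 1 column per mouse. The submitters' processing notes name HISAT2 2.0.4, Bowtie2 2.2.5, RSEM 1.2.12 and DESeq2 1.4.5 without their roles, and the build, annotation and strand setting are not given in the sources used here. Groups were taken from the sample labels, and no 2 libraries were identical. Symbols came from the RefSeq gene table by NCBI Gene identifier (17947 genes, 99.27%). The 10 genes, the wider list and the markers were chosen with earlier results of these data known.

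FPKM were used as log2(FPKM + 1). The 11664 genes that reached an FPKM of 1 in 3 or more libraries were fitted with limma 3.58.1 in R 4.3.3, with 1 mean per group over all 12 libraries and eBayes with trend. Tests were two-sided, with Benjamini-Hochberg adjustment over all genes tested and a threshold of 0.05. Each mouse is 1 sample, so p-values rest on the spread between mice. That spread was pooled over all groups, which are assumed to vary alike. On the log2 scale Mfap5 lay 1.38, 3.27 and 2.68 above the DMSO+Sham mean in DMSO+AB, but 1.37, 1.69 and 1.59 in Hispidulin+AB. Fbn1 spread similarly in both. With the spread taken from the DMSO mice alone, 0 of the 10 passed between DMSO+AB and DMSO+Sham. That fit also had fewer error degrees of freedom. Exact permutation tests used 20 arrangements, or 400 within both arms. The genes named are the 10, those of the wider list that passed or were not tested, and the 5 other genes most like their mean profile. Markers are named too, as are Mfap2, Mfap3 and Emilin2 of the wider list, which were tested and did not pass.

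Replicate numbers belong to different animals. Residuals of same-numbered mice correlated by 0.15 to 0.23 in every pair between Hispidulin+AB and Hispidulin+Sham and by 0.13 to 0.33 between Hispidulin+Sham and DMSO+Sham, and by -0.20 to -0.02 between DMSO+AB and DMSO+Sham and -0.18 to 0.30 between Hispidulin+AB and DMSO+AB. The number was therefore also fitted as a block. Alternatives were 0.1 added in place of 1, no filter, median-of-ratios scaling, library weights, a covariate for the series of animal numbers, a fit of the compared libraries alone, each mouse left out, and, chosen after seeing the data, the 3 libraries of high Myl7 left out. The wider list was run under the same settings, also added afterwards. Promoter windows were searched with Python 3.11.15.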

Additional observations from a re-analysis of the deposited data

Results flagged for a closer look

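Mfap5 and Fbln2 were each flagged because hispidulin went with opposite directions in banded and in sham hearts. Every Hispidulin+AB mouse lay below the DMSO+AB mean of log2(FPKM + 1) and every Hispidulin+Sham mouse above the DMSO+Sham mean. The banded groups overlapped all the same: DMSO+AB mouse 1 had Fbln2 at 32.78 FPKM, below all 3 Hispidulin+AB mice, and Mfap5 at 51.27 FPKM, below 2 of them. For Mfap5 the log2 difference was -0.89 in banded and 0.33 in sham mice, and the interaction was -1.22 (unadjusted p = 0.0365, adjusted p = 0.9995 by limma). For Fbln2 it was -0.29 and 0.38, with an interaction of -0.67 (unadjusted p = 0.0432, adjusted p = 0.9995 by limma). Neither interaction passed the correction over all genes. With 1 mouse left out the interaction was -1.75 to -0.81 for Mfap5 and -0.92 to -0.48 for Fbln2, with both largest without DMSO+AB mouse 1, and it passed in none of these fits.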

How the results depend on the processing

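Of the log2 differences of the 10 genes recomputed under the alternatives, 93 of 140 kept their direction and their side of the threshold between DMSO+AB and DMSO+Sham, 36 lost significance, 5 gained it and 6 turned. For the mean of both arms the counts were 174 of 190 kept, 5 lost, 9 gained and 2 turned. In the hispidulin arm 138 of 140 were kept and 2 gained significance.

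Between DMSO+AB and DMSO+Sham, 6 of the 10 genes passed as reported. That count was 3 with no filter on low values, 2 with the number series as a covariate, 0 with only the libraries compared, 0 without the high-Myl7 libraries and 1 to 9 with 1 mouse left out. For the wider list 5 passed as reported, and 3, 2, 0 and 0 under those settings and 0 to 9 with 1 mouse left out. Of all genes, 608 passed, and 383, 142, 11 and 20 under the same settings, 1423 with library weights and 91 to 1053 with 1 mouse left out. Over both arms 6 of the 10 passed as reported, 1 without the high-Myl7 libraries and 6 to 9 with 1 mouse left out. For the wider list 4 passed, 9 with library weights, 1 without the high-Myl7 libraries and 3 to 8 with 1 mouse left out. Of all genes 862 passed, 2535 with library weights, 547 with the number series, 74 without the high-Myl7 libraries and 376 to 1220 with 1 mouse left out.

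In the hispidulin arm 0 of the 10 passed, and 1 (Mfap5) with library weights or with only the libraries compared. Of all genes 0 passed, 2 with no filter, 2 with median-of-ratios scaling, 209 with library weights, 49 with only the libraries compared, 17 with the replicate block and up to 3 with 1 mouse left out. Between Hispidulin+AB and DMSO+AB, 0 of the 10 and 0 of all genes passed. Of all genes 2 passed with no filter and up to 20 with 1 mouse left out, and of the 10 up to 2, both without DMSO+AB mouse 1. For the interaction up to 3 of all genes passed with 1 mouse left out, again without DMSO+AB mouse 1.

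The values that turned sign were small. Between DMSO+AB and DMSO+Sham, Fbln1 was -0.055 with the number series, -0.10 without the high-Myl7 libraries and -0.10 to 0.23 with 1 mouse left out. Over both arms it was 0.0040 with library weights and -0.15 to 0.014 with 1 mouse left out. Between Hispidulin+AB and DMSO+AB, Fbln1 was 0.12 and Fbln5 0.14 without the high-Myl7 libraries, and with 1 mouse left out Fbln1 was -0.33 to 0.0005 and Fbln5 -0.65 to 0.047. Between Hispidulin+Sham and DMSO+Sham, the values without the high-Myl7 libraries were -0.059 for Eln, -0.0695 for Fbln5, -0.043 for Ltbp2 and -0.014 for Mfap4. Library weights gave -0.069 for Fbln5 and 0.11 for Fbn1, and the number series gave -0.052 for Ltbp2. With 1 mouse left out the ranges were -0.059 to 0.29 for Eln, -0.11 to 0.10 for Fbln5, -0.29 to 0.10 for Fbn1, -0.043 to 0.22 for Ltbp2 and -0.014 to 0.57 for Mfap4. For the interaction, Emilin1 was 0.12 with the number series, Emilin1 0.0008, Fbln1 0.026 and Fbln5 0.21 without the high-Myl7 libraries, and with 1 mouse left out Emilin1 was -0.24 to 0.11 and Fbln5 -0.66 to 0.035. The cause of these shifts was not tested, except that only the libraries compared leaves 4 error degrees of freedom and a mouse left out leaves 2 in its group. A group left with 2 mice is assumed to vary like the others. With the replicate block, Emilin1 passed over both arms, and 0 other calls of the 10 genes changed. Depth is unknown from FPKM, and values of Ltbp2 in sham mice and of Efemp1 in DMSO+AB mice lie near or below 1 FPKM.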
